A study of Homo sapiens with 9 samples.

Results

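Accessibility under ASO2 was compared with accessibility under the control oligonucleotide NCA in 119417 of the 148797 regions counted in the series, the regions with enough counts to be tested. The cells were SK-N-BE(2)c, an established human neuroblastoma line known for amplified MYCN. The ASO2 group was 3 libraries from cells transfected with ASO2, an antisense oligonucleotide that targets the lncRNA (long non-coding RNA) NESPR. The NCA group was 3 libraries from cells transfected with NCA, the negative control antisense oligonucleotide. Both groups received 100 nM of oligonucleotide with lipofectamine 2000 and were collected after 48 h, so the transfection itself is shared by both. A second oligonucleotide against NESPR, ASO10, gave 3 further libraries at the same dose and time, which entered the fit to share its estimate of spread and served as a second reference. The model is 1 line, and the labels do not say whether the libraries of a group came from separate cultures, so p-values measure the spread between these libraries, which may be technical. The level of NESPR RNA was not analysed here.

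Total counts were 7293565 to 10948569 per ASO2 library and 7835587 to 8896406 per NCA library. The replicate spread was a biological coefficient of variation of 23.5% for single regions. Among the markers of the noradrenergic neuroblastoma state, 4 of 5 (HAND2, GATA3, ISL1 and DBH, not TH) had a tested promoter region, at 12.9 to 23.5 CPM per kb of region (CPM, read counts normalised to the scaled library total) in NCA. Of 20 markers of other cell types, 6 had one (CD14, APOA1, GFAP, AQP4, PECAM1 and COL1A1), at 6.12 to 10.1 CPM per kb. None of these promoter regions was called between ASO2 and NCA by edgeR or DESeq2, and at an unadjusted edgeR p under 0.05 the counts were 0 for the first group and 2 for the second. In bulk libraries, a region open in more cells and a region more open in each cell cannot be told apart.

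ATAC-seq uses the transposase Tn5 to insert sequencing adapters where DNA is free of nucleosomes. Promoters of active genes are the strongest and most constant open sites of a cell, while open sites inside genes and between them, many of them enhancers, differ more between cell states. Long genes of nerve cells, such as those for synaptic adhesion and axon guidance proteins, often lie alone in wide stretches with few other genes.

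Promoters had the smallest share of changed regions among the position classes described below, and promoter sequences are shown first, 3 that gained and 3 that lost accessibility. Each is the 250 bases before a listed RefSeq start (GRCh38.p14, 5′ to 3′ on the gene's strand) for which the called region covered the whole listed window, from 250 bases before to 50 after the start. They had the smallest p in each direction among called promoter regions with 1 gene and 1 listed start, chromosomes 8 and 18 left out, and were chosen after their values were seen. Capitals mark the AP-1 motif TGANTCA, the CCAAT box CCAAT and the E-box CACGTG. The cAMP response element (its palindrome of 8 bases) and the TATA box TATAAA were searched as well and had no match here. Both strands were searched.
LMNTD1, gained, chr12:25648579-25648828, minus strand: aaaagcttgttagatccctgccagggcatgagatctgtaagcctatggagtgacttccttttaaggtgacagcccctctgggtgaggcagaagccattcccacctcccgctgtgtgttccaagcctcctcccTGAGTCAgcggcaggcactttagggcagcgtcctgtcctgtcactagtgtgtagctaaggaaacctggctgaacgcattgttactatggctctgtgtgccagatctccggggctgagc
ZNF136, gained, chr19:12162846-12163095, plus strand: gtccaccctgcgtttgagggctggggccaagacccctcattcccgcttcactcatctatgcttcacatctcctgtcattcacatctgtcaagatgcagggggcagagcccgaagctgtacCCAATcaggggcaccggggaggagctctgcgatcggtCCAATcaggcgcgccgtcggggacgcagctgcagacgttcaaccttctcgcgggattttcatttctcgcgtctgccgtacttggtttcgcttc
C15orf62, gained, chr15:40769730-40769979, plus strand: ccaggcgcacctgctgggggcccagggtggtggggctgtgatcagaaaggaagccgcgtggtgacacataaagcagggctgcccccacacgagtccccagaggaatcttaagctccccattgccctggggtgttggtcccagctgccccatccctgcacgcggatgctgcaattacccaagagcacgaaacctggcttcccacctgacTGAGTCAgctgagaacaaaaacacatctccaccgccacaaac
YAP1, lost, chr11:102110197-102110446, plus strand: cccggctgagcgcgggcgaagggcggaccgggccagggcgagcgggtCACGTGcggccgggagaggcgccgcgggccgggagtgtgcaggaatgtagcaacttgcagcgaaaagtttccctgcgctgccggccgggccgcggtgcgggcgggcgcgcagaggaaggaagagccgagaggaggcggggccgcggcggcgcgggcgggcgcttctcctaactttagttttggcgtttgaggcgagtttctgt
PLEKHA3, lost, chr2:178480207-178480456, plus strand: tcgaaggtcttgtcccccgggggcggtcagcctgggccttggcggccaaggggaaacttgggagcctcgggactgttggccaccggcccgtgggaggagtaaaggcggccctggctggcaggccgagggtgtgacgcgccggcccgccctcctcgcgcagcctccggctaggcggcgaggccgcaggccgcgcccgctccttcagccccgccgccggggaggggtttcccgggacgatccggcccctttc
ELOB, lost, chr16:2777281-2777530, minus strand: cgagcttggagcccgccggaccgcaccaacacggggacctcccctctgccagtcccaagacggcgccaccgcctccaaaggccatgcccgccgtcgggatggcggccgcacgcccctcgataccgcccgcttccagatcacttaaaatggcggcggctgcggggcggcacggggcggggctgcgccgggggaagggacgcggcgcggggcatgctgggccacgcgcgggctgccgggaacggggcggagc

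The LMNTD1 region (lamin tail domain protein) had 19.9, 14.5 and 13.9 CPM under ASO2 and 8.94, 5.79 and 7.76 CPM under NCA (log2 fold change with SE 1.09 ± 0.19, edgeR adjusted p = 2.4e-06). The ZNF136 region (zinc finger protein) had 25.0, 22.8 and 19.1 CPM against 14.4, 13.8 and 12.9 CPM (0.70 ± 0.15, edgeR adjusted p = 0.000387). The C15orf62 region had 26.9, 29.6 and 22.1 CPM against 15.0, 16.5 and 18.3 CPM (0.65 ± 0.15, edgeR adjusted p = 0.000568). All 3 ASO2 libraries lay above all 3 NCA libraries in each of these regions. The YAP1 region (coactivator of the Hippo pathway) had 4.94, 6.50 and 6.19 CPM against 7.93, 11.1 and 13.0 CPM (-0.85 ± 0.21, edgeR adjusted p = 0.00296). The PLEKHA3 region (Golgi lipid-binding protein) had 9.47, 11.6 and 8.16 CPM against 15.1, 16.0 and 16.1 CPM (-0.69 ± 0.18, edgeR adjusted p = 0.00341). The ELOB region (elongin B) had 12.1, 11.6 and 10.6 CPM against 17.8, 17.0 and 18.4 CPM (-0.64 ± 0.16, edgeR adjusted p = 0.00368). Here all ASO2 libraries lay below all NCA libraries. The YAP1 call was lost without NCA replicate 3 (edgeR adjusted p = 0.0990) and the PLEKHA3 call without ASO2 replicate 3 (edgeR adjusted p = 0.0695).

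The 3 gained windows had 55.2%, 59.2% and 60.4% G and C, and the 3 lost ones 72.0%, 75.2% and 76.0%. Over all called promoter regions, listed windows of 300 bases (250 before and 50 after the start) were overlapped 74 times by gained and 133 times by lost regions. Their median G and C content was 60.8% and 68.0%, against 66.0% in the 13985 windows overlapped by any tested promoter region. TGANTCA, seen in the LMNTD1 and C15orf62 windows, was present in 9 of the 74 gained windows (12.2%), 8 of the 133 lost ones (6.02%), 4.03% of the tested ones and 6.15% of all 22183 listed windows. CCAAT was present in 41.9%, 27.1%, 35.8% and 34.7% of the same sets, and CACGTG in 9.46%, 11.3%, 10.1% and 8.34%. These are counts of letters, with no test. Chromosome 8 is not part of the window counts.

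Gains and losses were placed differently relative to genes. Of all tested regions, 5.6% were called by edgeR's quasi-likelihood test (Benjamini-Hochberg adjusted p under 0.05), with 4.8% (5727) higher under ASO2 and 0.807% (964) lower. Every fold change here is relative to the library total after TMM scaling. Promoter regions, those within 1 kb of the start of a protein-coding gene, numbered 14441, of which 87 were higher (0.602%) and 147 lower (1.02%). Where no start is listed, either gene end counted as the start. Intragenic regions, elsewhere in a gene body, numbered 47889, with 2663 higher (5.56%) and 363 lower (0.758%). Distal regions, up to 200 kb from the nearest gene, numbered 39396, with 1501 higher (3.81%) and 350 lower (0.888%). Far regions, over 200 kb from any gene, numbered 16678, with 1474 higher (8.84%) and 98 lower (0.588%). The share of gains thus ran from 0.602% at promoters to 8.84% far from genes, while the share of losses stayed between 0.588% and 1.02%. Promoters had fewer gains than losses with all libraries in the fit, at 37.2% of their called regions against 85.6% over all regions. That order depended on single libraries, since without ASO2 replicate 3 promoters had 109 gains and 65 losses, and without NCA replicate 1 they had 63 and 67. Over all regions, losses numbered 1512 with loess offsets on abundance and 1458 among regions with at least 10 counts in every library.

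**Figure D1:**
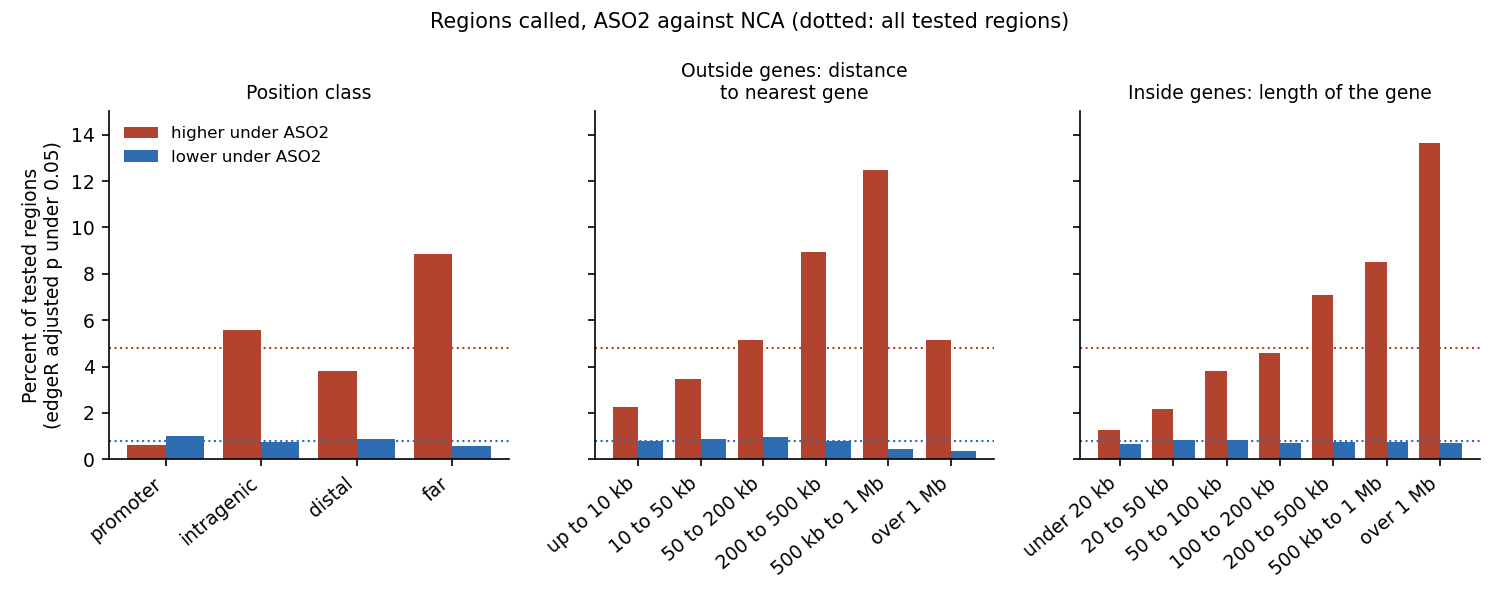
Percent of tested regions called higher (red) or lower (blue) under ASO2 by edgeR, by position class, by distance to the nearest gene for regions outside genes, and by gene length for regions inside genes. The dotted lines are all tested regions (4.8% and 0.807%). Gains run from 0.602% at promoters to 12.5% at 500 kb to 1 Mb from a gene and 13.6% in genes over 1 Mb.

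Stronger regions are easier to call, and promoters were the strongest class, with a median of 3.87 log2 CPM against 1.30 for intragenic, 1.31 for distal and 1.42 for far regions. Within 3 to 4 log2 CPM, 0.620% of promoter regions were higher, against 16.0% of intragenic, 12.7% of distal and 20.4% of far regions. The median log2 fold change at that strength was -0.06 for promoters, 0.11 for intragenic, 0.04 for distal and 0.06 for far regions. Over 5 log2 CPM the contrast was smaller. There 0.529% of promoter, 9.56% of intragenic, 5.32% of distal and 6.06% of far regions were higher. In the same order, 0.625%, 0.797%, 5.11% and 1.35% were lower, and the medians were -0.01, 0.05, -0.07 and -0.10. Of these strongest far regions, 19.9% lay above 0. Called changes were also smaller at promoters, with a median log2 fold change of 0.62 for gains and -0.60 for losses, against 1.12 and -0.91 inside genes and 1.18 and -0.91 far from genes. These medians cover called regions only and are not matched for strength. Weak regions need a larger change to be called. Over all regions losses moved to 513 without ASO2 replicate 1, 566 without NCA replicate 1, 618 without NCA replicate 3 and 626 without ASO2 replicate 2. Without ASO2 replicate 2 the gains numbered 3484 over all regions, and they were 37 at promoters, 1607 inside genes, 919 distal and 919 far. Gains at promoters were also 54 without ASO2 replicate 1 and 46 without NCA replicate 2. Losses moved by over 1.5 times without single libraries as well, at promoters to 65 (ASO2 replicate 3), 67 (NCA replicate 1), 69 (ASO2 replicate 1) and 77 (NCA replicate 3). They moved inside genes to 209 (ASO2 replicate 1), 217 (NCA replicate 1) and 226 (ASO2 replicate 2), and in distal regions to 173 (ASO2 replicate 1), 203 (ASO2 replicate 2), 209 (NCA replicate 1) and 227 (NCA replicate 3). In far regions they moved to 52 (ASO2 replicate 2), 56 (ASO2 replicate 1), 57 (NCA replicate 2) and 63 (NCA replicate 3).

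Distance ordered the gains outside genes. The share of regions higher under ASO2 was 2.25% up to 10 kb from the nearest gene, 3.45% at 10 to 50 kb, 5.16% at 50 to 200 kb, 8.96% at 200 to 500 kb and 12.5% at 500 kb to 1 Mb. It was 5.15% beyond 1 Mb. The share of losses was 0.774%, 0.891%, 0.957%, 0.792%, 0.446% and 0.359% over the same steps. Gains therefore became more frequent with distance up to 1 Mb and not beyond it, and the share of losses was lowest beyond 500 kb.

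Gene length ordered the gains inside genes. In genes under 20 kb 1.26% of intragenic regions were higher, in genes of 20 to 50 kb 2.19%, of 50 to 100 kb 3.79%, of 100 to 200 kb 4.57%, of 200 to 500 kb 7.09%, of 500 kb to 1 Mb 8.52% and over 1 Mb 13.6%. The share of losses was 0.669% in the shortest and 0.688% in the longest group. Median strength of the regions was similar, from 1.25 to 1.49 log2 CPM. Of 69 genes over 1 Mb with tested regions inside them, 47 held at least 1 gain and 15 at least 1 loss. Of 2092 genes under 20 kb, 33 and 18 did. The longest genes held 2470 tested regions and the shortest 2691. Long genes thus hold many more regions each, and these counts of genes do not compare the groups.

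Single promoters with the largest gains belonged to genes of varied function. CD36, a scavenger receptor that takes up fatty acids, had a region 156 bases from a listed start (chromosome 7, 80638798 to 80639364). It had 7.27, 6.40 and 7.44 CPM under ASO2 and 0.629, 1.97 and 1.66 CPM under NCA (log2 fold change with SE 2.29 ± 0.37, edgeR adjusted p = 1.7e-07). SORBS2, an adaptor of the actin cytoskeleton, had 5.21, 3.46 and 4.39 CPM against 1.38, 1.36 and 0.554 CPM (chromosome 4, 185657681 to 185658021; 1.98 ± 0.48, edgeR adjusted p = 0.00161). TMEM265, a transmembrane protein, had 10.0, 7.65 and 8.07 CPM against 2.01, 2.34 and 2.33 CPM (chromosome 16, 30741636 to 30742160; 1.93 ± 0.31, edgeR adjusted p = 1.2e-07). The SORBS2 and TMEM265 regions lie inside the gene bodies, 935 and 994 bases from the start used, at the edge of the 1 kb window. Each of these 3 was also higher than under ASO10 in the direct comparison (edgeR adjusted p = 0.000171, 0.0104 and 0.000140). Over all gained regions, 35.4% were also called against ASO10. The largest losses were at TRIM60, PAX1 and ADRB3. ADRB3, the beta-3 adrenergic receptor, had a region 504 bases outside an end of the gene (chromosome 8, 37961983 to 37962486) with 1.24, 3.04 and 1.88 CPM against 5.92, 4.68 and 8.21 CPM (-1.59 ± 0.34, edgeR adjusted p = 0.000252). No start is listed for genes of chromosome 8, so either gene end counted. Which end of ADRB3 this is was not determined, so the region may not be a promoter.

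Inside genes, the largest gains were sites with almost no counts in NCA. A region in ANK3, which encodes ankyrin-G of the axon initial segment, had 17, 24 and 34 counts under ASO2 and 0, 2 and 2 under NCA (chromosome 10, 60628262 to 60628500; log2 fold change with SE 3.94 ± 0.87, edgeR adjusted p = 0.000383). A region in CNTLN, a centrosomal protein gene, had 30, 73 and 39 counts against 5, 4 and 0 (chromosome 9, 17319614 to 17320173; 3.76 ± 0.53, edgeR adjusted p = 7.8e-10). A region in ADGRL3, the adhesion receptor latrophilin-3, had 10, 29 and 27 counts against 2, 0 and 2 (chromosome 4, 62027956 to 62028296; 3.73 ± 0.90, edgeR adjusted p = 0.00161), and its call was lost without ASO2 replicate 2 (edgeR adjusted p = 0.0525). The rule that named these 3 required groups that do not overlap. Over all tested regions, the ASO2 libraries lay wholly above NCA in 11.9% and wholly below in 8.57%. The largest intragenic losses were in ST3GAL1, TJP1 and ADGRD1. The ST3GAL1 region, in a sialyltransferase gene, had 2, 6 and 3 counts against 13, 35 and 22 (chromosome 8, 133517091 to 133517404; -2.79 ± 0.71, edgeR adjusted p = 0.00333), and was not called without NCA replicate 2 (edgeR adjusted p = 0.152).

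Outside genes the largest gains were also near 0 in NCA. The region 53.8 kb from NOL4 (chromosome 18, 34278754 to 34278977), a nucleolar protein gene, had 13, 19 and 34 counts under ASO2 and 0, 0 and 2 under NCA, a ratio of 29.6 between the groups (95% counting interval 7.87 to 249). The region 111 kb from ANKRD50 (chromosome 4, 124552574 to 124552909), an ankyrin repeat protein gene, had 22, 23 and 17 counts against 0, 1 and 2, a ratio of 18.5 (6.05 to 92.3). The region 967 kb from CDH2 (chromosome 18, 29144174 to 29144603), the N-cadherin gene, had 13, 18 and 33 counts against 0, 0 and 3, a ratio of 19.1 (6.26 to 95.2). These intervals cover counting error only. The edgeR adjusted p-values were 0.000343, 0.000510 and 0.00129. The distal region 180 kb from SCG2, the gene of the granule protein secretogranin II, had 22, 18 and 25 counts against 3, 1 and 0 (log2 fold change with SE 3.76 ± 0.83, edgeR adjusted p = 0.000436). The far region 1639 kb from SLITRK1 had 14, 34 and 33 counts against 1, 0 and 2, a ratio of 24.2 (7.99 to 120; edgeR adjusted p = 3.0e-06), and that 1036 kb from TECRL had 7, 26 and 36 counts against 0, 2 and 2 (3.77 ± 0.79, edgeR adjusted p = 0.000162). The groups do not overlap in these 6 regions because the rule that named them required it.

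The gains with the smallest p were stronger sites. The region 598 kb from CAMK1G (chromosome 1, 208984780 to 208986205), a calmodulin-dependent kinase gene, had 23.7, 28.7 and 20.9 CPM under ASO2 and 8.69, 6.16 and 8.21 CPM under NCA (log2 fold change with SE 1.67 ± 0.17, edgeR adjusted p = 2.0e-17). The region 108 kb from ZFPM2 (chromosome 8, 105912979 to 105914078), a cofactor of GATA factors, had 19.8, 19.3 and 17.8 CPM against 4.78, 4.44 and 5.77 CPM (1.91 ± 0.20, edgeR adjusted p = 3.0e-17). In both, the ASO10 mean lay between, at 11.8 ± 0.927 and 9.24 ± 1.65 CPM (SD, n = 3), and ASO2 was also higher than ASO10 (edgeR adjusted p = 1.3e-07 and 9.5e-06). Among the gains named above with few counts, ANK3 was higher than under ASO10 (edgeR adjusted p = 0.0351). For CNTLN, ADGRL3, NOL4, ANKRD50, SCG2, CDH2, SLITRK1 and TECRL a difference from ASO10 was not shown, with edgeR adjusted p from 0.0904 (CNTLN) to 0.677 (TECRL).

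The loss with the smallest p was at a very strong region. It lies 251 kb from MYCN (chromosome 2, 16197622 to 16199061), the oncogene amplified in this line, and had 1737, 1822 and 1725 CPM under ASO2 and 2641, 2479 and 2716 CPM under NCA (log2 fold change with SE -0.57 ± 0.07, edgeR adjusted p = 3.8e-13). Counts were not corrected for DNA copy number, so the height of CPM near MYCN does not measure openness alone. The region 327 kb from HTR1E (chromosome 6, 86609541 to 86610464), a serotonin receptor gene, had 7.14, 12.7 and 10.7 CPM against 24.5, 20.3 and 25.2 CPM (-1.18 ± 0.17, edgeR adjusted p = 7.8e-10). It had 8.98 ± 1.10 CPM under ASO10 (SD, n = 3), and a difference between ASO2 and ASO10 was not shown (0.19 ± 0.18 SE, edgeR adjusted p = 0.680). The far region 429 kb from TSHZ3, a zinc finger factor gene, had 4, 4 and 8 counts against 23, 19 and 32 (chromosome 19, 31780145 to 31780837; -2.34 ± 0.58, edgeR adjusted p = 0.00226). The distal region 2.92 kb from ITPR2, an inositol trisphosphate receptor gene, had 5, 1 and 6 counts against 15, 24 and 27 (-2.55 ± 0.67, edgeR adjusted p = 0.00526), and was not called without ASO2 replicate 2 (edgeR adjusted p = 0.0811). The ASO2 libraries lay below the NCA libraries in the MYCN and HTR1E regions, and in the TSHZ3 and ITPR2 regions the naming rule required it. Against ASO10, the 13 named losses other than the MYCN region had edgeR adjusted p from 0.0876 (TSHZ3) to 0.956 (TJP1).

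The other 8 of the named losses (nearest to TRIM60, PAX1, TJP1, ADGRD1, MAN1A2, RPL6, TDRD3 and LOC124903442) had at most 31 counts in any library. Each lost its call in 2 to 5 of the 6 fits that left out a library, and each of ASO2 replicates 1 to 3 and NCA replicates 1 to 3 ended at least 1 of these calls. The highest edgeR adjusted p in those fits ran from 0.0978 (TDRD3) to 0.357 (PAX1).

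**Figure D2:**
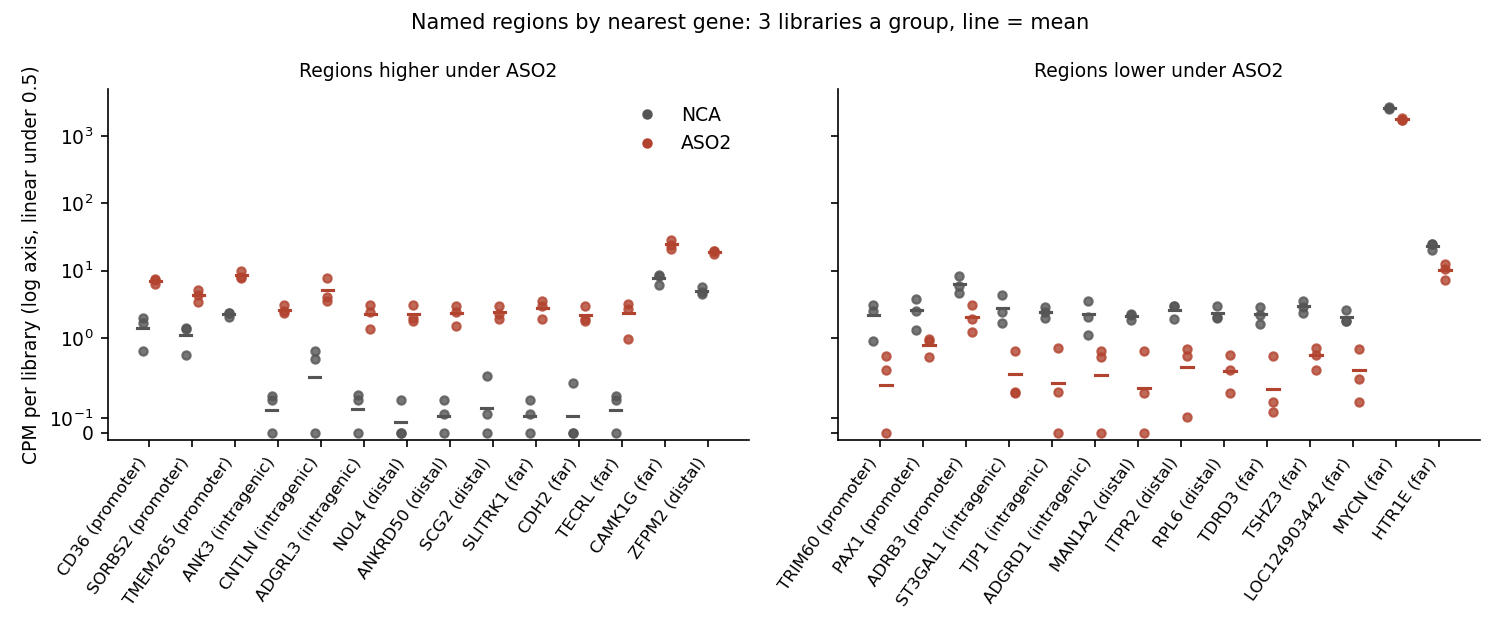
CPM in each library (log axis, linear under 0.5) for the named regions, labelled by nearest gene and class, with NCA in grey and ASO2 in red, 3 libraries a group and a line at the mean. Most large gains sit near 0 in NCA, while the regions near CAMK1G and ZFPM2 rise from 7.68 and 5.00 CPM and the region near MYCN falls from 2612 CPM.

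Gene neighbourhoods were then tested as wholes, each the sum of all regions in a gene body or, outside genes, nearest to it within 100 kb. Of 17291 neighbourhoods 8.32% were called by edgeR, with 6.29% (1087) higher and 2.04% (352) lower under ASO2. The split depended on the scaling. TMM gave 75.5% of calls higher, and loess offsets on abundance gave 60.6% (818 higher and 531 lower). The lower neighbourhoods numbered 181 without ASO2 replicate 2, 209 without ASO2 replicate 1 and 230 without NCA replicate 2. Of 17206 neighbourhoods with tested regions, 2029 held at least 1 gained region, and 144 held 5 or more, with 1082 gained regions among them. Losses were present in 729 neighbourhoods, with 2 or more in 51 and at most 4 in any. Losses were fewer in total, and neighbourhoods differ in their number of tested regions. These counts therefore do not compare how gains and losses cluster.

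The neighbourhoods that rose with the smallest p, and those with the most gained regions, were long genes, many of them active in nerve cells. CADM2, a synaptic adhesion molecule (chromosome 3, 84958989 to 86074429), summed to 588, 634 and 600 CPM under ASO2 and 391, 378 and 401 CPM under NCA (log2 fold change with SE 0.64 ± 0.04, edgeR adjusted p = 1.0e-25), with 19 of its 64 tested regions higher and 0 lower. Here CPM is scaled to the counts assigned to any neighbourhood. DMD, the dystrophin gene (chromosome X, 31119222 to 33339388), had 333, 338 and 316 CPM against 199, 184 and 205 CPM (0.75 ± 0.05, edgeR adjusted p = 2.3e-24), with 12 of 45 regions higher. In both the groups did not overlap, and no region in them was called lower. Over all neighbourhoods the ASO2 libraries lay wholly above NCA in 13.0%.

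ROBO2 and ROBO1, neighbouring receptors of the axon guidance ligand SLIT on chromosome 3, had 24 of 91 and 16 of 66 regions higher. ROBO2 summed to 772, 790 and 804 CPM against 558, 523 and 566 CPM (0.52 ± 0.04, edgeR adjusted p = 1.0e-21). ROBO1 summed to 496, 492 and 498 CPM against 341, 340 and 375 CPM (0.49 ± 0.04, edgeR adjusted p = 5.7e-17). MACROD2, a very long gene for a mono-ADP-ribosyl hydrolase, held 23 gains and 1 loss among 164 regions (0.34 ± 0.04, edgeR adjusted p = 4.3e-13). NAALADL2 (18 of 61 regions higher), the receptor tyrosine kinase gene ERBB4 (13 of 49) and the protocadherin gene PCDH15 (12 of 34) had log2 fold changes of 0.60 ± 0.04, 0.62 ± 0.05 and 0.45 ± 0.05 (edgeR adjusted p = 1.4e-22, 3.5e-19 and 1.3e-12). All 8 were also higher than under ASO10, with log2 differences from 0.30 (MACROD2) to 0.53 (ERBB4) and a largest edgeR adjusted p of 9.8e-07 (PCDH15). These 8 were picked by their ASO2 values, which both comparisons share. Of all 1087 neighbourhoods called higher than NCA, 629 (57.9%) were also called against ASO10.

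**Figure D3:**
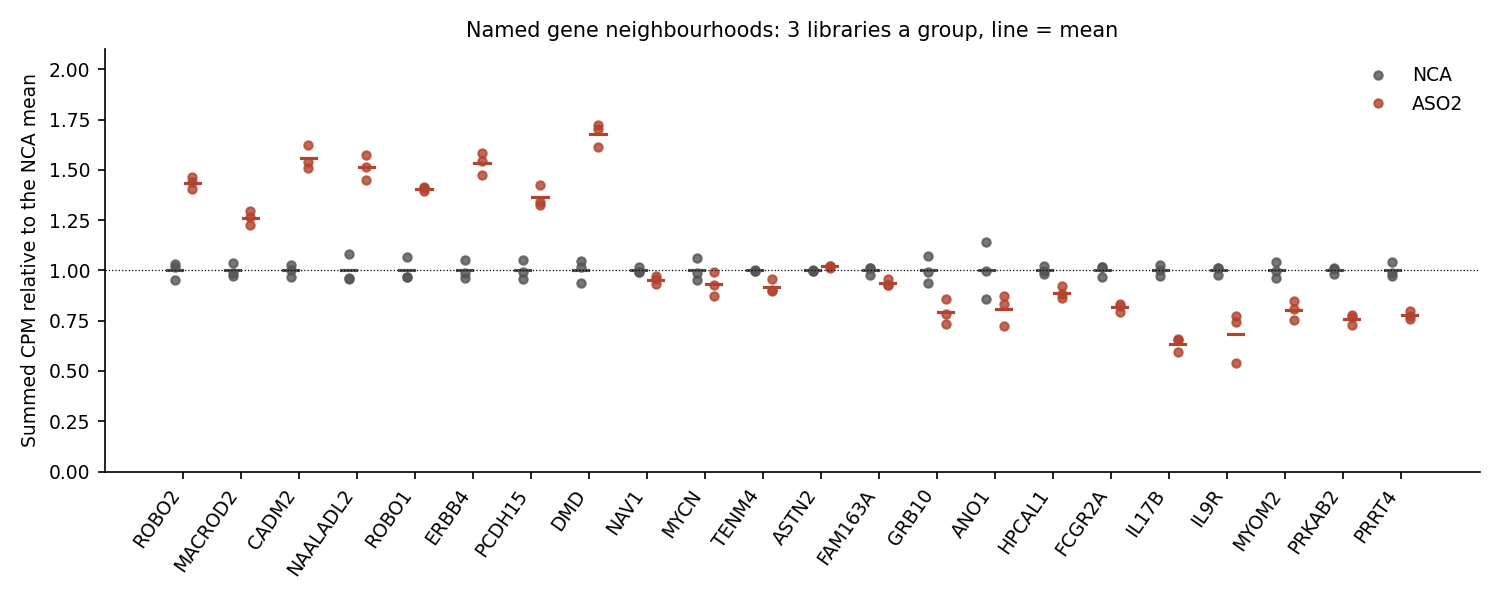
Summed CPM of the named gene neighbourhoods in each library relative to the NCA mean, with NCA in grey and ASO2 in red, 3 libraries a group and a line at the mean. The 8 neighbourhoods on the left rise by log2 fold changes of 0.34 to 0.75, while those on the right lie between -0.65 and 0.03.

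Neighbourhoods with the smallest p among those that fell were shorter genes with few regions. IL17B, a cytokine gene (chromosome 5, 149374267 to 149404202), had 39.0, 42.9 and 43.2 CPM under ASO2 and 67.5, 63.7 and 65.8 CPM under NCA (-0.65 ± 0.10, edgeR adjusted p = 4.9e-07). MYOM2, a muscle M-band protein gene (chromosome 8, 2045046 to 2145456), had 176, 189 and 198 CPM against 233, 243 and 224 CPM (-0.31 ± 0.06, edgeR adjusted p = 9.4e-06). PRRT4, a proline-rich membrane protein gene (chromosome 7, 128350325 to 128361983), had 112, 117 and 111 CPM against 152, 144 and 141 CPM (-0.36 ± 0.07, edgeR adjusted p = 2.2e-05). In each, all ASO2 libraries lay below all NCA libraries, as in 9.77% of all neighbourhoods, and 1 region was called lower by itself. FCGR2A, IL9R and PRKAB2 were also called lower (-0.29, -0.53 and -0.40; edgeR adjusted p = 1.1e-08, 4.0e-06 and 1.1e-05). These genes or their surroundings have near-identical copies, so the 3 values are given as uncertain, and the division of reads among copies was not tested.

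The neighbourhoods with the most lost regions mostly were not called as wholes. MYCN, NAV1, TENM4 and ASTN2 each held 4 losses and FAM163A 3, while ASTN2 also held 6 gains and FAM163A 1, with log2 fold changes of -0.10, -0.07, -0.12, 0.03 and -0.10 (edgeR adjusted p = 0.444, 0.458, 0.0527, 0.741 and 0.201). With loess offsets all 5 were called lower, ASTN2 with a change of sign, at -0.13 (edgeR adjusted p = 0.0139). The MYCN neighbourhood summed to 29737, 27979 and 31736 CPM against 31569, 33979 and 30478 CPM, and the groups overlapped. GRB10, ANO1 and HPCAL1, with 3 losses each, had -0.33 ± 0.11, -0.30 ± 0.09 and -0.17 ± 0.06 (edgeR adjusted p = 0.0305, 0.0199 and 0.0450). These 3 calls were not kept in every fit that left out a library. They were lost for GRB10 without ASO2 replicate 1 or ASO2 replicate 2 or NCA replicate 2 or NCA replicate 3 (edgeR adjusted p up to 0.159), for ANO1 without ASO2 replicate 2 or NCA replicate 2 (edgeR adjusted p up to 0.272) and for HPCAL1 without ASO2 replicate 1 or ASO2 replicate 2 or NCA replicate 1 or NCA replicate 2 or NCA replicate 3 (edgeR adjusted p up to 0.203). The HPCAL1 call was also lost with only the ASO2 and NCA libraries in the fit (edgeR adjusted p = 0.0574).

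Chromosomes differed in their share of gains. Gains were 11.3% of the tested regions on chromosome 4, 10.8% on 18, 8.02% on 13 and 7.58% on 5. They were 0.709% on chromosome 19, 0.906% on 22, 1.45% on 16 and 2.11% on 17. The order followed the number of protein-coding genes per tested region only in part. Chromosomes 13, 22 and 19 held 0.0705, 0.273 and 0.411 protein-coding genes per tested region, but chromosome 18 held 0.278 and X held 0.493 with 6.46% gains. This number is not gene density, since it also depends on how many regions were tested (970 on chromosome 18 and 1719 on X). Genes per length of chromosome were not compared. The share of losses ran from 0.393% (chromosome 21) to 1.17% (chromosome 11).

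In sums over bins of 1 Mb, 41.5% of 2905 bins were called by edgeR, 24.2% (702) higher and 17.3% (503) lower. Most of these changes were small, with a median log2 fold change of 0.29 in the higher and -0.16 in the lower bins. The calls followed the number of protein-coding genes. Of bins with 0 genes 45.3% were higher and 6.32% lower, and of bins with 1 to 2 genes 43.7% and 8.92%. Of bins with 3 to 5 genes 25.1% were higher and 16.2% lower, with 6 to 10 genes 10.2% and 22.9%, and with 11 to 20 genes 4.31% and 25.3%. Of bins with over 20 genes 0.980% were higher and 35.3% lower. The median log2 fold change fell from 0.17 with 0 genes to -0.06 with over 20. As medians over bins relative to the mean of the 6 libraries (log2 CPM), the ASO2 libraries lay from 0.08 to 0.13 and the NCA libraries from -0.12 to -0.06 in bins with 0 genes. In bins with over 20 genes they lay from -0.04 to -0.01 and from 0.01 to 0.04.

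**Figure D4:**
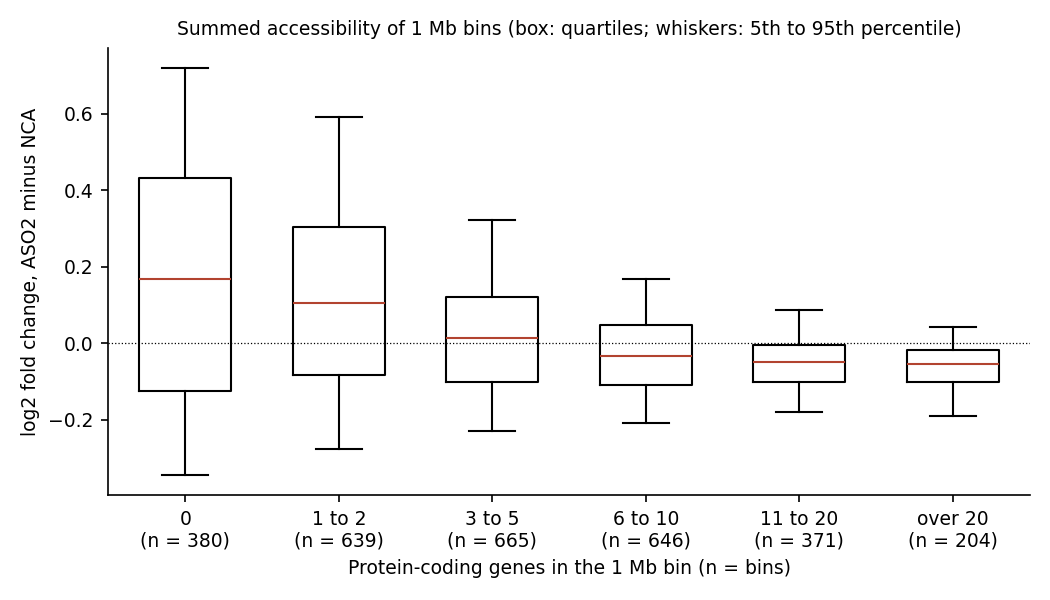
Log2 fold change of summed counts, ASO2 minus NCA, in bins of 1 Mb grouped by their number of protein-coding genes (box: quartiles and median; whiskers: 5th to 95th percentile; n = bins). The median falls from 0.17 in bins with 0 genes to -0.06 in bins with over 20, and the spread narrows.

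Higher bins formed long runs. Runs of 3 or more adjacent higher bins numbered 81 and held 380 of the 702 bins, and runs of lower bins numbered 43 and held 158 of 503. The longest covered 14 bins of chromosome 13 from 61 to 75 Mb with 12 genes in all, every bin between 0.27 and 0.85 on the log2 scale. Runs of 13 bins lay on chromosome 1 from 187 to 200 Mb, with 28 genes and changes from 0.08 to 0.45, and on chromosome 5 from 18 to 31 Mb, with 6 genes and changes from 0.19 to 0.91. A run of 12 bins on chromosome 2 from 182 to 194 Mb held 42 genes with changes from 0.11 to 1.15. A run of 10 bins on chromosome 18 from 64 to 74 Mb held 11 genes with changes from 0.32 to 0.76. The longest run of lower bins was 8 bins on chromosome 11 from 124 to 132 Mb, with 72 genes and changes from -0.29 to -0.10.

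Among the bins with the smallest p, the higher ones held 0 or 1 protein-coding gene. The lower ones held 6, 17, 1 (MYOM2) and 31, so the contrast in gene number was not complete. The bin at 180 to 181 Mb of chromosome 4 holds no protein-coding gene and summed to 277, 285 and 276 CPM under ASO2 and 166, 180 and 178 CPM under NCA (log2 fold change with SE 0.67 ± 0.05, edgeR adjusted p = 1.5e-12), with 15 of 32 tested regions called higher. The bin at 178 to 179 Mb, also without a gene, rose by 1.01 ± 0.08 on the log2 scale (edgeR adjusted p = 1.2e-11), with 9 of 16 regions called higher. The bins with KLHL1, an actin-binding protein gene (chromosome 13, 69 to 70 Mb), and with CADM2 (chromosome 3, 85 to 86 Mb) rose by 0.76 ± 0.05 and 0.70 ± 0.05 (edgeR adjusted p = 1.6e-12 for both). The lowest p among lower bins was at 148 to 149 Mb of chromosome 1 (-0.22 ± 0.03, edgeR adjusted p = 1.3e-07), given as uncertain because it holds NBPF and NOTCH2NLB copies. The division of reads among them was not tested. The bin at 128 to 129 Mb of chromosome 7, with 17 genes including FLNC, LEP and PRRT4, had 651, 641 and 649 CPM against 756, 746 and 741 CPM (-0.21 ± 0.03, edgeR adjusted p = 2.7e-07). In it 2 of 90 regions were called lower by themselves and 1 higher. The bin with MYOM2 (chromosome 8, 2 to 3 Mb) and an olfactory receptor cluster on chromosome 1 (248 to 249 Mb, 31 genes, also a family of similar copies) changed by -0.31 ± 0.04 and -0.24 ± 0.03 (edgeR adjusted p = 3.5e-07 and 4.9e-07). In all 8 bins the groups did not overlap, as in 27.2% of all bins for ASO2 above NCA and 21.0% for ASO2 below.

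Each library's counts were also divided among the classes. Intragenic regions held 30.65%, 30.66% and 30.61% of counts under ASO2 and 29.0%, 29.3% and 28.5% under NCA, a difference of 1.72 points with no overlap (two-sided exact permutation p = 0.1, the smallest that 3 against 3 can give; 0.4 adjusted over 12 comparisons). Promoter regions held 25.0% ± 1.33 against 25.8% ± 0.990 (SD, n = 3; exact permutation p = 0.5, adjusted 0.6) and distal regions 24.8% ± 0.530 against 25.5% ± 0.176 (exact permutation p = 0.2, adjusted 0.4). Far regions held 16.5% ± 0.639 against 16.5% ± 0.472 (exact permutation p = 0.9, adjusted 0.9). The small far difference of -0.0218 points was 0.298 without ASO2 replicate 2 and 0.219 without NCA replicate 2. The strongest region of the table, classed as intragenic, at 629123 to 634897 of chromosome 1, held 8.87% ± 0.223 of counts against 8.20% ± 0.525 (exact permutation p = 0.2, adjusted 0.4). Whether its reads come from this locus or from any copy elsewhere was not tested. Without this region, an alternative chosen after seeing the data, the intragenic difference was 1.31 points (exact permutation p = 0.1) and the far difference 0.108 points (exact permutation p = 0.8). By number of genes in the bin, the shares differed by 0.315 points in bins with 0 genes, -0.131 with 1 to 2, 0.292 with 3 to 5, -0.185 with 6 to 10, -0.393 with 11 to 20 and 0.362 with over 20. Their exact permutation p ran from 0.2 to 0.9, and these shares did not follow the order of the bin calls.

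Gene lists were counted beside all neighbourhoods, and they were chosen with earlier results of these data known. They were not matched for gene length, so the kind of gene and its length cannot be told apart. Of 44 synaptic and long neuronal genes, 26 (59.1%) rose and 3 (6.82%) fell as neighbourhoods, against 6.29% and 2.04% of all neighbourhoods, with a median log2 fold change of 0.29 against -0.01 over all neighbourhoods tested. Among their regions 206 of 1612 (12.8%) were higher and 16 lower, against 4.8% higher over all regions and 13.6% inside any gene over 1 Mb. Besides the genes above, the cadherins CDH12 and CDH18 (0.67 ± 0.06 and 0.72 ± 0.07 SE), the contactins CNTN6 and CNTN4 (0.91 ± 0.10 and 0.50 ± 0.06) and the adhesion protein gene LSAMP (0.47 ± 0.05) rose (edgeR adjusted p from 4.6e-19 to 3.1e-11). OPCML, PTPRD and SLITRK1 fell (-0.23, -0.24 and -0.51; edgeR adjusted p = 0.00307, 0.0486 and 0.0459). Single libraries ended all 3 of these calls, for OPCML without ASO2 replicate 1 or ASO2 replicate 2 (edgeR adjusted p up to 0.0545), for PTPRD without ASO2 replicate 1 or ASO2 replicate 2 or NCA replicate 1 or NCA replicate 2 or NCA replicate 3 (edgeR adjusted p up to 0.517) and for SLITRK1 without ASO2 replicate 1 or ASO2 replicate 2 or NCA replicate 1 or NCA replicate 2 (edgeR adjusted p up to 0.343). Among the rises the same held for SLITRK5 without ASO2 replicate 2 (edgeR adjusted p up to 0.0584). With loess offsets 24 genes rose and 6 fell.

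Of 37 axon guidance genes 11 (29.7%, against 6.29% of all neighbourhoods) rose and 0 fell (edgeR; at an unadjusted p under 0.05, 1 was lower, and DESeq2 called 11), with a median of 0.12 and 95 of 823 regions higher against 1 lower. The higher regions were 11.5%, against 4.8% over all regions. Inside any gene of 200 to 500 kb the share was 7.09%, and inside any over 1 Mb 13.6%. Neither this list nor the others were matched to all neighbourhoods for gene length. The class 3 semaphorins SEMA3A, SEMA3C, SEMA3D and SEMA3E, secreted cues that steer growing axons, had log2 fold changes from 0.48 to 0.63 (edgeR adjusted p from 6.0e-16 to 1.9e-10). The ephrin receptors EPHA5 and EPHA6 rose by 0.40 ± 0.06 and 0.35 ± 0.05 (edgeR adjusted p = 3.1e-07 and 2.7e-09). Calls were lost for DCC without ASO2 replicate 3 or NCA replicate 2 (edgeR adjusted p up to 0.108) and for EFNA5 without ASO2 replicate 3 (edgeR adjusted p up to 0.0913). SEMA3A was the list's single gene with a called promoter region, at 12.9 ± 2.33 CPM against 6.91 ± 1.20 CPM (SD, n = 3; edgeR adjusted p = 0.000600). With loess offsets 9 genes rose and 0 fell.

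Of 24 adrenergic identity factors, 6 (25.0%) rose and 1 (4.17%) fell, against 6.29% and 2.04% of all neighbourhoods, with a median of 0.05. DACH1 (0.54 ± 0.06), EYA1 (0.32 ± 0.05) and ISL1 (0.33 ± 0.07), developmental transcription regulators, rose (edgeR adjusted p = 7.5e-14, 6.9e-08 and 0.000492), and HAND1 fell (-0.26 ± 0.06, edgeR adjusted p = 0.000491). A call was lost for SOX4 without ASO2 replicate 1 or ASO2 replicate 2 or ASO2 replicate 3 or NCA replicate 2 or NCA replicate 3 (edgeR adjusted p up to 0.238). With loess offsets the list had 3 rises and 3 falls. A region 94.0 kb from ISL1 (chromosome 5, 51488746 to 51489553) had 17.6, 22.9 and 19.5 CPM against 7.55, 9.12 and 11.1 CPM (1.11 ± 0.17, edgeR adjusted p = 2.8e-08). Of 14 catecholamine genes 1 rose and 2 fell (7.14% and 14.3%, against 6.29% and 2.04%). SCG2 rose (0.33 ± 0.07) and RET, a receptor of glial-derived neurotrophic factor, and DDC, which makes dopamine, fell (-0.29 ± 0.06 and -0.17 ± 0.05; edgeR adjusted p = 1.0e-04, 0.000264 and 0.0241). A call was lost for DDC without ASO2 replicate 1 or ASO2 replicate 3 or NCA replicate 1 or NCA replicate 3 (edgeR adjusted p up to 0.176).

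Of 28 mesenchymal factors 4 (14.3%, against 6.29% of all neighbourhoods) rose and 0 fell by edgeR (at an unadjusted p under 0.05, 7 were higher and 1 lower; DESeq2 called 3), and with loess offsets 3 rose and 1 fell. ZEB1 and ZEB2, repressors that drive epithelial to mesenchymal transition, had 0.52 ± 0.09 and 0.43 ± 0.08 (edgeR adjusted p = 1.4e-05 and 3.0e-05). Calls were lost for MAML2 without ASO2 replicate 3 or NCA replicate 3 (edgeR adjusted p up to 0.0882) and for TGFBR2 without ASO2 replicate 2 or ASO2 replicate 3 or NCA replicate 1 or NCA replicate 3 (edgeR adjusted p up to 0.236). A region 60.3 kb from ZEB2 (chromosome 2, 144580404 to 144581354) had 15.1, 17.0 and 10.8 CPM against 4.66, 4.44 and 5.43 CPM (1.55 ± 0.22, edgeR adjusted p = 1.7e-09). Of 20 AP-1 and immediate early genes 3 (15.0%, against 6.29%) rose and 0 fell, with a median of 0.14 (-0.01 over all neighbourhoods) and 85.0% above 0. At an unadjusted p under 0.05, 9 were higher and 0 lower, and DESeq2 called 3. For all neighbourhoods the share at that unadjusted cut-off is not given here. The unadjusted counts of this and the other lists of neighbourhoods therefore have no background beside them. NR4A3, an orphan nuclear receptor gene, rose by 0.27 ± 0.06 (edgeR adjusted p = 0.00181), and a region 82.1 kb from it had 8.65, 13.3 and 13.2 CPM against 2.27, 4.07 and 4.32 CPM (1.72 ± 0.25, edgeR adjusted p = 4.4e-09). The other two calls, JUNB (0.29 ± 0.08, edgeR adjusted p = 0.0112) and KLF6 (0.18 ± 0.06, edgeR adjusted p = 0.0384), were lost for JUNB without ASO2 replicate 2 (edgeR adjusted p up to 0.0789) and for KLF6 without ASO2 replicate 2 or NCA replicate 1 or NCA replicate 2 or NCA replicate 3 (edgeR adjusted p up to 0.307). With loess offsets JUNB was the 1 gene of this list called, and the NR4A3 call was lost (0.18, edgeR adjusted p = 0.0517).

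Lists of cell maintenance and stress genes had few called neighbourhoods, as did all neighbourhoods (8.32% called). By edgeR 0 of 34 neighbourhoods of DNA replication and cell cycle genes, 0 of 20 of the unfolded protein response, 0 of 24 of interferon and nucleic acid sensing and 0 of 19 of apoptosis were called. At an unadjusted p under 0.05 these lists had 3 higher and 3 lower, 0, 1 higher, and 1 higher and 2 lower, and DESeq2 called 1, 0, 0 and 0. Of 53 cytosolic ribosomal protein genes RPS28 was the one called (-0.65 ± 0.15, edgeR adjusted p = 0.00113), by a single promoter region shared with NDUFA7 at 13.0 ± 2.20 CPM against 20.9 ± 0.861 CPM (SD, n = 3). Of 30 integrated stress response genes VLDLR was the one called (0.21 ± 0.06, edgeR adjusted p = 0.0274), and of 22 p53 targets AEN and CCNG1 (0.21 ± 0.06 and 0.21 ± 0.07, edgeR adjusted p = 0.0219 and 0.0340). All 3 of these calls were lost without single libraries, for VLDLR without ASO2 replicate 2 or NCA replicate 1 or NCA replicate 2 (edgeR adjusted p up to 0.166), for AEN without ASO2 replicate 2 or ASO2 replicate 3 or NCA replicate 2 or NCA replicate 3 (edgeR adjusted p up to 0.136) and for CCNG1 without ASO2 replicate 1 or ASO2 replicate 2 or NCA replicate 1 or NCA replicate 2 (edgeR adjusted p up to 0.236), and none was made with loess offsets. Of 17 markers of other cell types 2 rose (11.8%, against 6.29% of all neighbourhoods) and 0 fell. PTPRC, the leukocyte antigen CD45, and MBP, a myelin protein, rose (0.49 ± 0.07 and 0.53 ± 0.13; edgeR adjusted p = 4.8e-09 and 0.00159). At an unadjusted p under 0.05 that list had 2 higher and 2 lower, DESeq2 called 3, and the list's median was -0.09. Neither PTPRC nor MBP had a tested promoter region, and the part of other cell types in the gains was not tested. Across all lists 5 of 403 promoter regions were called (over all promoter regions 0.602% were higher and 1.02% lower), those of SEMA3A and RPS24 higher and those of YAP1, NEGR1 and RPS28 lower.

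**Figure D5:**
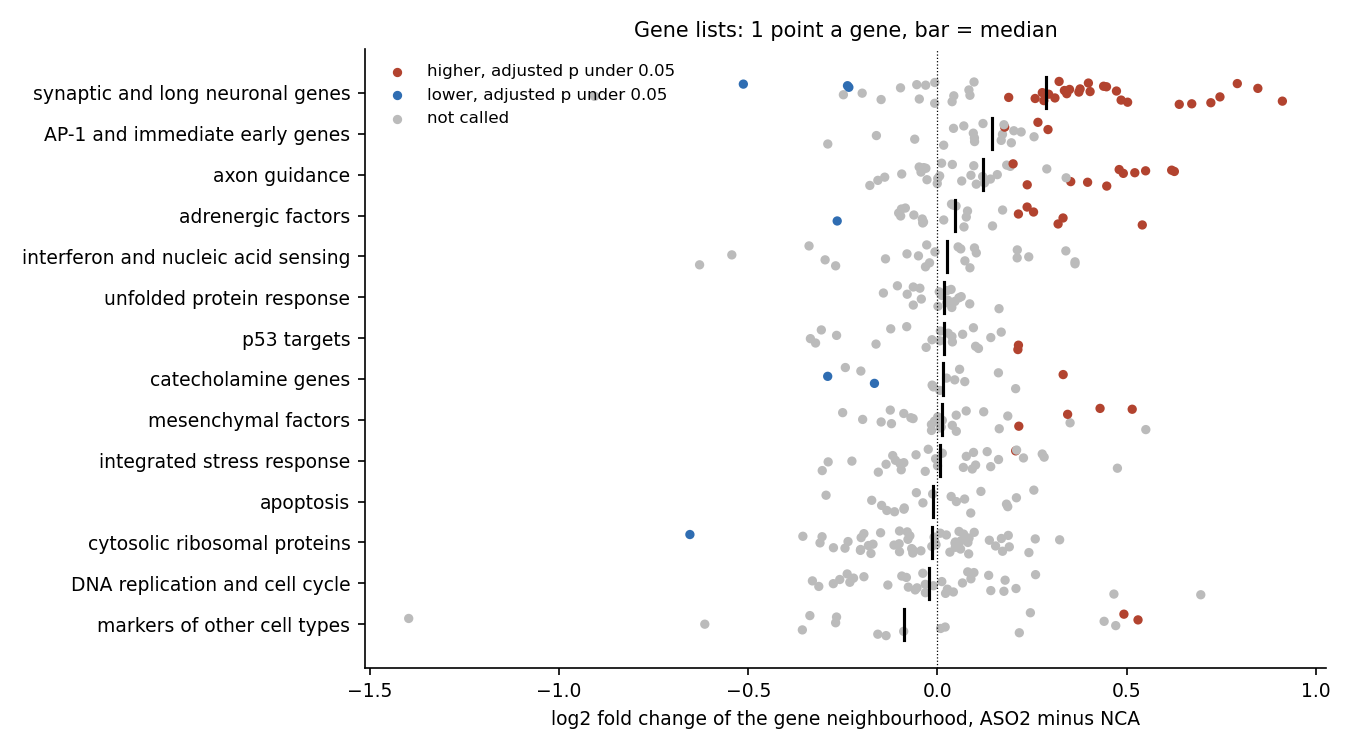
Log2 fold change of each gene's neighbourhood, ASO2 minus NCA, by gene list, with genes called higher in red, lower in blue and not called in grey, and a bar at the median. The synaptic and long neuronal genes (median 0.29) and axon guidance genes (0.12) hold most of the red points.

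Values under ASO10 are given beside these for the neighbourhoods named above, as a comparison that shares the ASO2 libraries. Against NCA and against ASO10, the log2 differences of ASO2 were 0.64 and 0.35 for CADM2, 0.75 and 0.51 for DMD and 0.62 and 0.53 for ERBB4, all called higher in both (edgeR adjusted p against ASO10 = 9.1e-11, 8.1e-14 and 7.0e-15). For the neighbourhoods that fell they were -0.65 and -0.20 for IL17B, -0.31 and -0.02 for MYOM2 and -0.36 and -0.10 for PRRT4 (edgeR adjusted p against ASO10 = 0.277, 0.876 and 0.400). Over all neighbourhoods called against NCA, 57.9% of the higher and 14.8% of the lower ones were also called against ASO10. The IL17B neighbourhood had 48.0 ± 1.07 CPM under ASO10 (SD, n = 3), and CADM2 had 476 ± 10.1 CPM. The strong region near MYCN was lower under ASO2 than under ASO10 as well (log2 difference -0.46 ± 0.07 SE, edgeR adjusted p = 3.1e-08), with 2423 ± 12.4 CPM under ASO10 (SD, n = 3).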

How the data were processed

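Open chromatin was measured by ATAC-seq in 9 libraries, 3 each of ASO2, ASO10 and NCA. The authors deposited whole-number counts per region for all libraries in 1 table, whose totals differ between libraries, so no normalization was applied to it. Per the submitters' processing notes, FastQC, Bowtie2 2.2.6, SAMtools, MACS2 2.1.2, DESeq2 1.42.0 and the build hg38 (GRCh38) were used. Their settings, the counting program, the treatment of duplicates and any shift for Tn5 insertion are not given in the sources used here. Counts come from regions called beforehand, so openness outside them is not measured. The molecule is RNA per the labels and tagmented genomic DNA per their protocol.

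Regions passing edgeR's default filter on low counts were tested with the quasi-likelihood test (edgeR 4.0.16 in R 4.3.3, robust, TMM scaling, 9 libraries, group terms), and p-values were adjusted over all regions by Benjamini-Hochberg with a threshold of 0.05. Neighbourhood sums (100 kb limit) and 1 Mb bins were fitted in the same way. The position classes used 20037 protein-coding genes of the RefSeq GRCh38.p14 table, of which 15842 had a listed start. For the others either gene end served as the start. Exons and introns were not distinguished, and whether region starts count from 0 or 1 is not given. Class shares were compared by exact permutation, two-sided. No 2 libraries of a group agreed within sampling noise. With 7293565 to 10948569 counts per ASO2 library, a count of 0 allows up to 3 counts in a library, and counting intervals cover counting error only, since reads carry no molecular identifiers.

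In simulated data 24.5% of 200 regions changed by a log2 of 1 were recovered, as were 86.8% of the 38 stronger than 3 log2 CPM, and 3 of 52 calls were false. Named regions were the 3 largest changes per class and direction among called regions without group overlap and with a mean of at least 2 CPM in the higher group, and the 2 smallest p in each direction. Named neighbourhoods had the most called regions or the smallest p, named bins the 4 smallest p in each direction, and list genes the smallest p. A marker gene and a neighbourhood that these rules name are not reported here. Other list genes and the printed promoters were chosen after their values were seen. The gene lists and the comparison were chosen with earlier results of these data known. Alternatives were RLE size factors, loess offsets (limma 3.58.1), DESeq2 1.42.0, other filters, a fold threshold, only the ASO2 and NCA libraries, each library left out, a replicate block, and other windows and bin sizes. Tables and plots used Python 3.11.15, pandas 2.3.3, scipy 1.17.1 and matplotlib 3.10.9.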

Additional observations from a re-analysis of the deposited data

How the results depend on the processing

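Of 196 pairs of a main result and an alternative, 154 kept their direction and their side of the threshold or stayed within 1.5 times the count, and of 2196 pairs for named regions, neighbourhoods and bins 1957 did, 230 lost the call, 8 gained it and 1 reversed. The reversed one was the ASTN2 neighbourhood with loess offsets (-0.13). Requiring an absolute log2 fold change over 1 left 3766 regions, 39 neighbourhoods and 5 bins, with 15 gains and 21 losses at promoters, 1606 and 154 inside genes, 838 and 124 distal, and 961 and 45 far. Promoter losses were 291 with loess offsets, 312 with at least 10 counts in every library and 90 by DESeq2, intragenic losses were 227 by DESeq2 and distal losses 532 with loess offsets. Bins of 2 Mb gave 735 called bins. The causes of these differences were not tested.

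With 1 library left out, called regions ranged from 4110 to 5321, neighbourhoods from 962 to 1277 and bins from 1061 to 1154. Gains and losses ranged from 37 to 109 and 65 to 139 at promoters, 1607 to 2086 and 209 to 287 inside genes, 919 to 1197 and 173 to 293 distal, and 919 to 1189 and 52 to 87 far. Differences in share of counts ranged from -1.45 to -0.117 points at promoters, 1.51 to 1.88 inside genes, -0.906 to -0.379 distal and -0.341 to 0.298 far. The far difference reversed from -0.0218 to 0.108 without the strongest region (exact permutation p = 0.8), an alternative chosen after seeing the data. The replicate numbers did not pair the samples, since same-numbered ASO2 and NCA libraries had correlations of 0.0161, -0.108 and -0.0583 in their deviations. A replicate block gave 6312 regions (5490 higher, 822 lower), 1394 neighbourhoods and 1132 bins. Depth limits weak regions most: in simulated data most regions changed by a log2 of 1 at low counts were missed, so an uncalled weak region may still differ.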

Other observations

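Regions on unplaced contigs belong to no position class of the report. Of 1013 tested regions there, 2 were called higher and 6 lower under ASO2 by edgeR (adjusted over all tested regions).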
